A study of Mus musculus with 3 samples.

Results

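The inflammasome genes described here are Pycard, Nlrp3, Casp1, Casp4, Aim2, Nlrc4, Gsdmd, Naip5 and Nek7. They were chosen by name, and all non-control probes that carry one of these names were read, which gave 15 probes for 9 genes out of 56599 probes on each array. Spleen cells were exposed for 3 h to 1 of 3 fluids. The lpr urine came from male MRL/MpJ-Faslpr/lpr mice, which lack functional Fas and develop lupus-like disease. The MRL/MpJ urine came from males of the parent strain with intact Fas, and the control was phosphate-buffered saline (PBS). The cells of all 3 groups came from the spleen of male MRL/MpJ mice with intact Fas, so only the urine donors differed at Fas. Cells and urine donors were 6 months old, urine of 6 donors per strain was pooled and passed through a 0.22 µm filter, and each well held 500 µL of medium. Each group was 1 single-colour array made from 1 RNA sample, so no difference below has a replicate check, and no p-value or standard error over samples was possible. In bulk RNA, fewer cells of a type and less RNA per cell cannot be told apart.

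An inflammasome is a protein complex that senses infection or cell damage. A sensor (Nlrp3, Aim2, or Nlrc4 together with a NAIP protein) recruits the adaptor ASC, the product of Pycard, and ASC gathers pro-caspase-1 so that it cuts itself into the active enzyme. Caspase-1 then matures interleukin-1 beta and interleukin-18 and cuts gasdermin D, whose freed end forms pores in the cell membrane. Caspase-11, the product of mouse Casp4, binds bacterial lipopolysaccharide inside the cell and cuts gasdermin D without a canonical sensor. In macrophages, Nlrp3 and Casp4 messages are low at rest and are induced by microbial products, while ASC and caspase-1 are made constitutively.

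Pycard was read by 2 probes that lie on opposite strands, and their sequences are given because the largest difference among these genes rests on which of them reads Pycard. The first is part of the RefSeq transcript NM_023258 and holds codons of the ASC protein. The second was named Pycard in the array annotation, but its own identifier is AK050905, a complementary DNA clone that the annotation describes as unclassifiable. Both are written 5′ to 3′ in the sense of the transcript they are listed for, with no base singled out. On the mm9 build, the first lies at chr7:135136241-135136300 on the minus strand, the strand of the Pycard gene, and the second at chr7:135140025-135140084 on the plus strand.
Pycard NM_023258 probe: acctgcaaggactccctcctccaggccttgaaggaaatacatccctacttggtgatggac
Pycard AK050905 probe: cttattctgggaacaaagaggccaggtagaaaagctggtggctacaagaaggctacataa

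One of the Naip5 probes ends in a stretch that other probes of the array share. Its last 23 bases stand in the probe of the predicted gene Gm4971, and an overlapping run of 23 bases, from position 25 to 47 of the Naip5 probe, stands in the probe of Gm45231. Positions were counted from 1 at the 5′ end, and every base shown is shared. The Naip5 probe lies at chr13:100981843-100981902 on the minus strand (mm9).
Shared by Naip5 and Gm4971: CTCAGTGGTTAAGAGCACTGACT
Shared by Naip5 and Gm45231: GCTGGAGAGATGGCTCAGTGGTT

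Casp4 was lower with both urines under all processing settings, and the 250 bases before its start are shown for the match to the NF-kB consensus, written in capitals. The sequence is that of RefSeq on GRCm38.p6, chr9:5308599-5308848 on the plus strand.
Casp4 promoter: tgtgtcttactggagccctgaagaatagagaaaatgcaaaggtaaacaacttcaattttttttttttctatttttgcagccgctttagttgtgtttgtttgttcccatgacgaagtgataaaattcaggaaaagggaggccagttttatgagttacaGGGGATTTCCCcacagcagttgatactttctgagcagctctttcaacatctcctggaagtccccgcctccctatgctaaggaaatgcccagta

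The deposited value of a probe is its processed signal, a brightness in intensity units from which the scanner software had subtracted background. The arrays differed in overall brightness. On the lpr urine, MRL/MpJ urine and PBS arrays the 75th percentile of all processed signals stood at 75.7, 86.6 and 157.5, and each difference below is a log2 ratio taken after dividing every array by that percentile. A difference is therefore relative to the bulk of the probes of its array. The errors given beside differences come from the software's own error estimate for each spot; they cover measurement on the array and not variation between wells or animals. The E1A spike-ins, synthetic transcripts added to every RNA sample, set another scale that places all probes 1.00 lower with lpr urine and 0.91 lower with MRL/MpJ urine on the log2 scale. A probe counted as 2-fold higher or lower only if the software called it well above background on both arrays compared.

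All 15 probes were well above background on all 3 arrays. Against PBS, 5 probes were at least 2-fold higher and 1 was at least 2-fold lower with lpr urine, and the same counts of 5 and 1 were found with MRL/MpJ urine. The 5 higher ones were the AK050905 probe and both probes of Gsdmd and of Naip5, and the lower one was Casp4. This is 40.0% of the member probes in each comparison, beside 30.1% of all 29741 probes measured with lpr urine and PBS and 27.9% of all 30286 measured with MRL/MpJ urine and PBS. The 40.0% includes the AK050905 probe, which by strand and position does not match the annotated Pycard transcript, and counts probes of the same gene apart. It also includes both Naip5 probes. The brighter shares bases with probes of other genes, and the dimmer was close to background and also lists transcripts of other Naip genes. By direction, 16.9% of all probes were 2-fold higher and 13.2% lower with lpr urine, and 15.5% were higher and 12.4% lower with MRL/MpJ urine. The median difference of the member probes was 0.56 with lpr urine and 0.54 with MRL/MpJ urine, where the median of all probes was 0.08 with lpr urine and 0.06 with MRL/MpJ urine. The 2 urine comparisons share the PBS array, so a deviation of that array moves both.

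**Figure D1:**
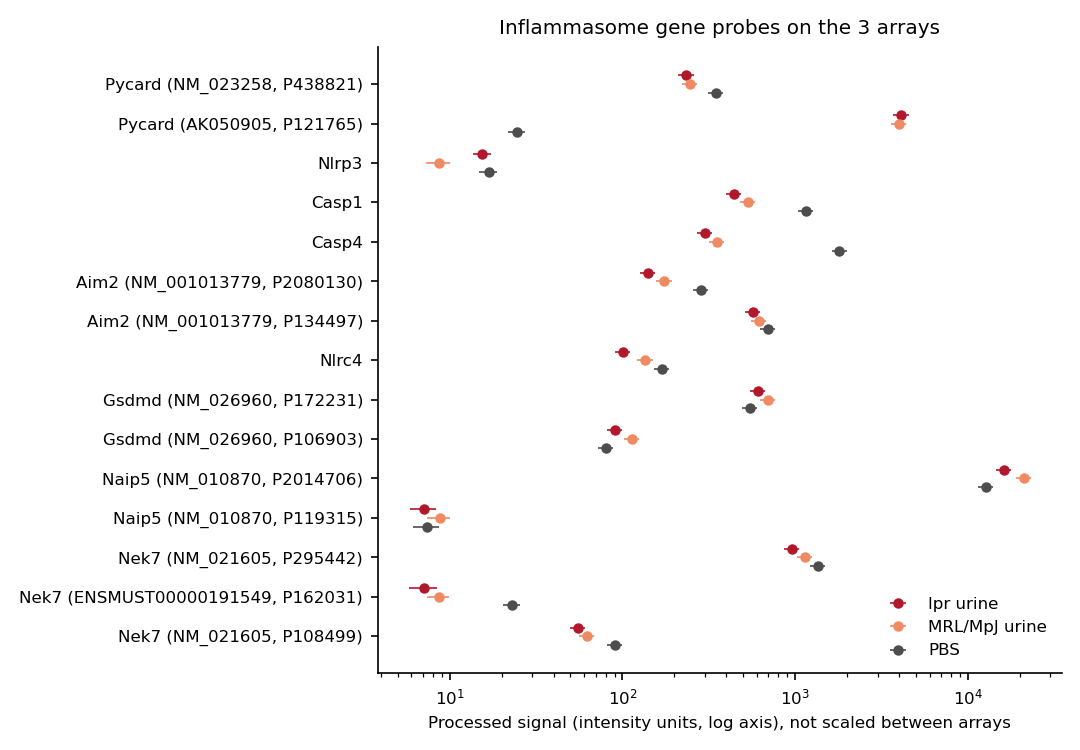
Processed signal of the 15 probes (intensity units, log axis, before any scaling between arrays) on the lpr urine, MRL/MpJ urine and PBS arrays. Bars are the scanner software's error estimate for the spot. The AK050905 probe read 4116 and 3971 with the urines and 24.6 with PBS, while most other probes were dimmer on the urine arrays, as were the arrays as a whole.

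Among the sensors, Nlrp3, which responds to potassium loss and membrane damage, was the one member past 2-fold between the 2 urines. Its single probe (chromosome 11, 59378554 to 59378613, plus strand, mm9) had a processed signal of 15.4 with lpr urine, 8.64 with MRL/MpJ urine and 16.9 with PBS. The log2 difference was 1.03 ± 0.29 (software error) between lpr urine and MRL/MpJ urine, a 2.04-fold higher level, whereas it was 0.93 ± 0.24 between lpr urine and PBS and -0.10 ± 0.28 between MRL/MpJ urine and PBS. Of the 15 probes, 1 was 2-fold higher and 0 were 2-fold lower with lpr urine than with MRL/MpJ urine, where 0.294% of all 30606 probes were higher, 0.0719% lower and 0.366% past 2-fold in either direction. Nlrp3 ranked number 79 from the top of these probes.

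The Nlrp3 signals were low, the faintest signal called well above background being 4.43, 4.46 and 4.47 on the lpr urine, MRL/MpJ urine and PBS arrays. With normexp background correction, which compresses differences of dim probes, the difference between the urines was 0.25, and it was 0.94 with spike-in scaling. Repeated spots within 1 array, for probes in this range of brightness (log2 signal from 0 to 5), gave an SD of 0.25 for a difference of 2 spots. That SD holds no variation between arrays, labellings or wells. The direction was the same under all 5 settings, from 0.25 to 1.05, while the sign of lpr urine against PBS turned to -0.07 with spike-in scaling. The sign of MRL/MpJ urine against PBS also depended on the setting, from -1.01 to 0.42.

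Aim2, which binds double-stranded DNA in the cytosol, had 2 probes on chromosome 1. The probe at 175396036 to 175396095 had 139.8 with lpr urine, 174.9 with MRL/MpJ urine and 285.9 with PBS, which gave differences of 0.03 and 0.15 against PBS. The probe at 175385660 to 175385719 had 571.6, 620.1 and 692.5 in the same order of groups, with differences of 0.78 and 0.70. The 2 probes list the same transcript, NM_001013779, and both stayed within 2-fold of PBS. With spike-in scaling all 4 differences were below 0, from -0.97 to -0.21.

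Nlrc4, which joins NAIP proteins once these have bound bacterial flagellin or secretion system parts, had 100.2 with lpr urine, 135.7 with MRL/MpJ urine and 170 with PBS (chromosome 17, 74826172 to 74826231, minus strand). The difference was 0.29 with lpr urine and 0.54 with MRL/MpJ urine against PBS, and -0.24 ± 0.21 (software error) between the urines. Neither reached 2-fold, and both against PBS turned below 0 with spike-in scaling, at -0.70 with lpr urine and -0.37 with MRL/MpJ urine.

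Naip5 encodes the mouse receptor that binds flagellin. Its brighter probe, whose shared stretches are printed above, had 16230 with lpr urine, 21030 with MRL/MpJ urine and 12700 with PBS. It was 2.66-fold higher with lpr urine (log2 difference 1.41 ± 0.20) and 3.01-fold higher with MRL/MpJ urine (1.59 ± 0.20) than with PBS, while with spike-in scaling it differed by 0.41 and 0.68. The probes that share bases with it differed in the same direction. The Gm4971 probe had 6336, 8243 and 4312 with lpr urine, MRL/MpJ urine and PBS, with differences of 1.61 and 1.80 against PBS. The Gm45231 probe had 672.4, 965.9 and 375.9, with differences of 1.90 and 2.22.

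Runs of 20 bases from this Naip5 probe were also found in 38 of the 32851 RefSeq promoter windows, which belong to 37 genes, whereas none of the other 14 member probes had a run of 20 bases in any window. How much of this signal comes from Naip5 was not tested. The dimmer Naip5 probe (chromosome 13, 101015657 to 101015716, minus strand) does not hold it, but it lists transcripts of Naip1 and Naip6 beside Naip5. This probe had 7.12 with lpr urine, 8.75 with MRL/MpJ urine and 7.37 with PBS, close to background, and was 2.01-fold and 2.16-fold higher against PBS after scaling. With spike-in scaling the differences were 0.01 with lpr urine and 0.20 with MRL/MpJ urine.

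Nek7, a kinase that binds NLRP3 and is needed for its assembly, had 3 probes on the minus strand of chromosome 1. The brightest (140381763 to 140381822) had 959.4 with lpr urine, 1143 with MRL/MpJ urine and 1351 with PBS, and differed by 0.56 and 0.62 from PBS. The probe at 140382961 to 140383020 had 55.4, 62.2 and 90.7, with differences of 0.35 and 0.32. The other lists the Ensembl transcript ENSMUST00000191549 and had 7.11, 8.66 and 23.0, with differences of -0.64 ± 0.31 and -0.55 ± 0.27 (software error). No Nek7 probe reached 2-fold against PBS after 75th percentile scaling, but the Ensembl one was past 2-fold lower with spike-in scaling, at -1.64 with lpr urine and -1.46 with MRL/MpJ urine, and with median scaling at -1.03 with lpr urine. The 2 RefSeq probes turned below 0 with spike-in scaling, and the Ensembl one turned above 0 with normexp correction.

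Pycard, the gene of the adaptor, gave unlike values on its 2 probes. The NM_023258 probe had 234.5 with lpr urine, 244.8 with MRL/MpJ urine and 347 with PBS, the highest of the 3 being PBS before scaling. After scaling it differed by 0.49 ± 0.20 with lpr urine and 0.36 ± 0.20 with MRL/MpJ urine, within 2-fold of PBS, and the sign turned with spike-in scaling to -0.51 with lpr urine and -0.55 with MRL/MpJ urine. The AK050905 probe had 4116 with lpr urine, 3971 with MRL/MpJ urine and 24.6 with PBS. Both urine arrays were far above the PBS array there, and the urines themselves were 0.25 ± 0.20 apart.

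The difference of the AK050905 probe from PBS was 8.45 ± 0.21 with lpr urine and 8.20 ± 0.21 with MRL/MpJ urine (software error), and it ranked number 4 from the top among all probes measured in each comparison. Across the 5 settings it ran from 6.37 to 8.45 with lpr urine and from 6.21 to 8.20 with MRL/MpJ urine, the lowest values being those of normexp correction. A gap of 3724 bases separates this probe from the NM_023258 probe. The whole Pycard gene spans 2495 bases in the RefSeq table (GRCm38.p6). A plus-strand probe at that distance therefore lies beyond the annotated gene, on the side of Trim72, and on the strand opposite to Pycard. Neither probe shared a run of 20 bases with another probe of the array or with a promoter window. By strand and position the AK050905 probe does not match the annotated Pycard transcript, so its value is not given here as a level of the Pycard message, and which transcript it reads was not tested.

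Neighbours of Pycard were read beside it. Trim72, a membrane repair gene best known from muscle, lies on the plus strand beyond the AK050905 probe, and its 2 probes were not well above background with PBS. The brighter had 58.6 with lpr urine and 57.7 with MRL/MpJ urine, which after 75th percentile scaling was at least 27.3-fold and at least 23.5-fold higher than with PBS. The dimmer had 12.5 and 12.7, at least 5.83-fold and at least 5.16-fold higher on that scale. These bounds set the scaled urine signal against the scaled faintest signal called above background on the PBS array, and they hold for that scale only. With the probes' own PBS signals, the log2 difference of the brighter ran over the 5 settings from 1.69 to 5.03 with lpr urine and from 1.56 to 4.82 with MRL/MpJ urine, and that of the dimmer from 0.86 to 2.72 and from 0.73 to 2.54. Prss36, on the side of Pycard away from Trim72, had differences of -0.36 with lpr urine and -0.33 with MRL/MpJ urine.

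**Figure D2:**
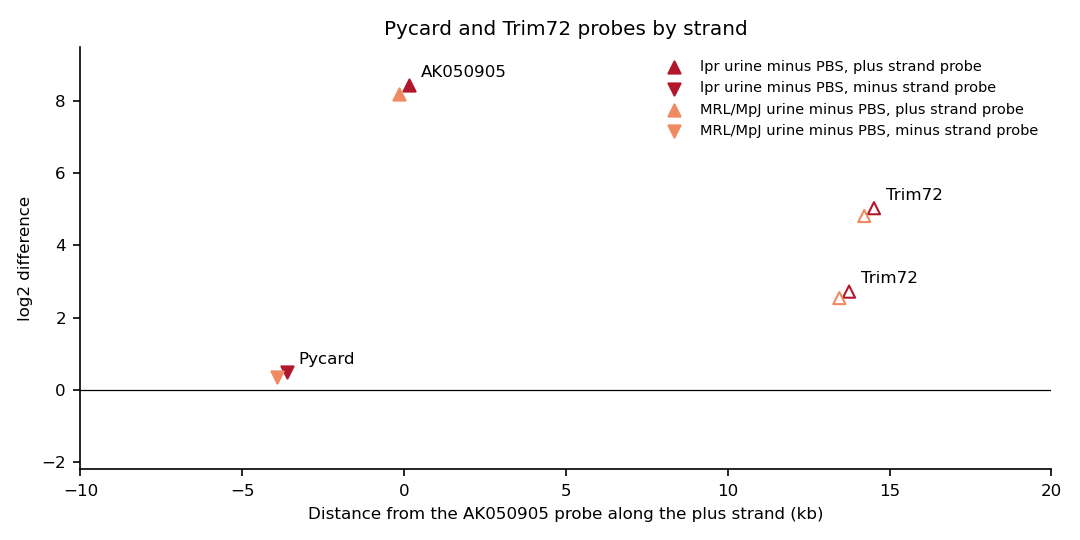
log2 difference from PBS of the Pycard and Trim72 probes (y axis) against their distance from the AK050905 probe in kb along the plus strand (x axis), for lpr urine and MRL/MpJ urine. Upward triangles are plus-strand probes, downward triangles the minus-strand NM_023258 probe of Pycard, and open symbols probes that were not well above background with PBS. The AK050905 probe stood at 8.45 and 8.20 and the Pycard transcript probe, -3.78 kb away, at 0.49 and 0.36.

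Casp1, which encodes the protease at the centre of the pathway, had 442.9 with lpr urine, 531.7 with MRL/MpJ urine and 1158 with PBS (chromosome 9, 5307206 to 5307265, plus strand). After scaling it differed by -0.33 ± 0.20 with lpr urine and -0.26 ± 0.20 with MRL/MpJ urine, within 2-fold of PBS. All 5 settings placed it below PBS, and with spike-in scaling it was past 2-fold, at -1.33 with lpr urine and -1.17 with MRL/MpJ urine.

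Casp4, the gene of caspase-11, had 299 with lpr urine, 350.4 with MRL/MpJ urine and 1804 with PBS (chromosome 9, 5336658 to 5336717, plus strand). The PBS array stood clearly above both urine arrays. The gene was 2.90-fold lower with lpr urine than with PBS (log2 difference -1.54 ± 0.20), and 2.83-fold lower with MRL/MpJ urine (-1.50 ± 0.20), and the urines were -0.03 apart. It was 2-fold lower in all 5 settings, from -2.53 to -1.47 with lpr urine and from -2.41 to -1.43 with MRL/MpJ urine. Of the measured probes, 5.54% differed further downward with lpr urine and 5.52% with MRL/MpJ urine. The probe lists 3 transcripts, of which NM_007609 matched Casp4 in the RefSeq table.

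Gsdmd, the gene of the pore-forming gasdermin D, was read by 2 probes on chromosome 15 that gave like values. The probe at 75697536 to 75697595 had 606.8 with lpr urine, 691.9 with MRL/MpJ urine and 546.7 with PBS, and was 2.31-fold higher with lpr urine and 2.30-fold higher with MRL/MpJ urine. The other covers 2 stretches between 75695520 and 75695884, a span of 365 bases for its length of 60, and so crosses an intron. It had 90.0, 113 and 80.0, and was 2.34-fold and 2.57-fold higher. Before scaling the signals of the 3 arrays lay close together, and with spike-in scaling the differences from PBS were 0.21 and 0.23 with lpr urine and 0.29 and 0.45 with MRL/MpJ urine, above 0 but short of 2-fold.

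**Figure D3:**
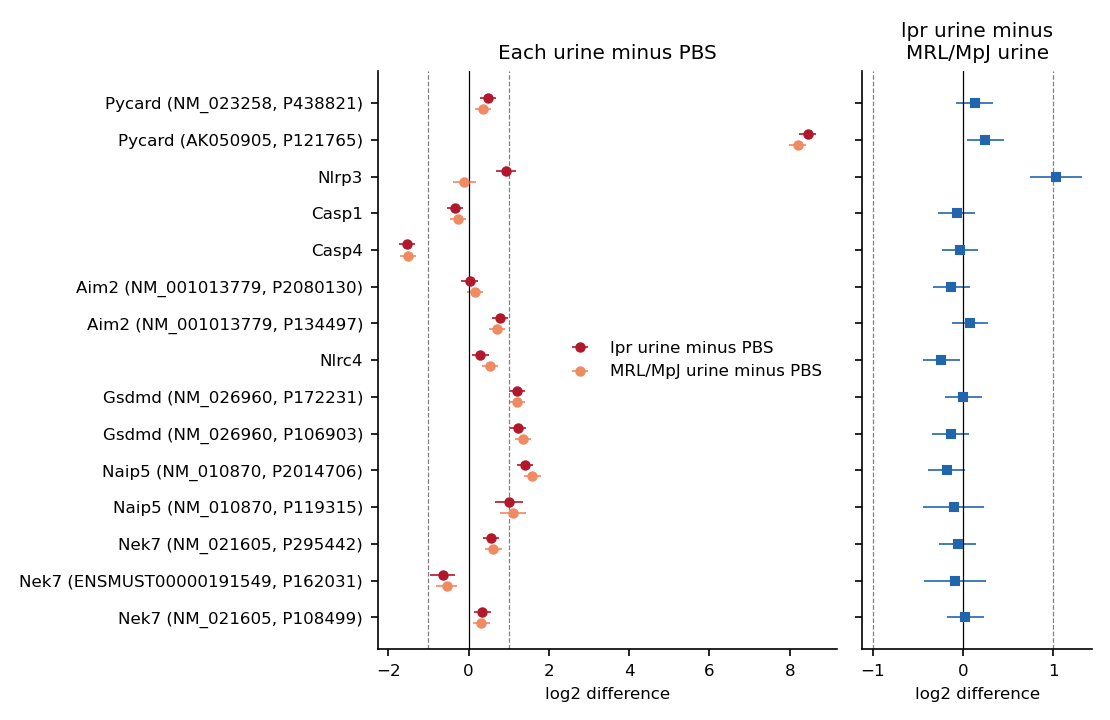
log2 differences of the 15 probes, with lpr urine and MRL/MpJ urine each minus PBS on the left and lpr urine minus MRL/MpJ urine on the right, after scaling each array to its 75th percentile. Bars are the software's error carried to the difference and dashed lines mark 2-fold. Nlrp3, at 1.03, is the one probe past 2-fold between the urines, and the difference of every other probe there lay between -0.24 and 0.25.

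Scaling decided most of these calls. The AK050905 probe (higher) and Casp4 (lower) were past 2-fold against PBS in all 5 settings with both urines. The brighter Naip5 probe passed 2-fold in 3 settings with lpr urine and in 4 with MRL/MpJ urine, each Gsdmd probe in 2 settings with either urine, and the dimmer Naip5 probe in 1. The signs of the probes of Nlrp3, Aim2, Nlrc4, Nek7 and NM_023258 against PBS depended on the setting.

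**Figure D4:**
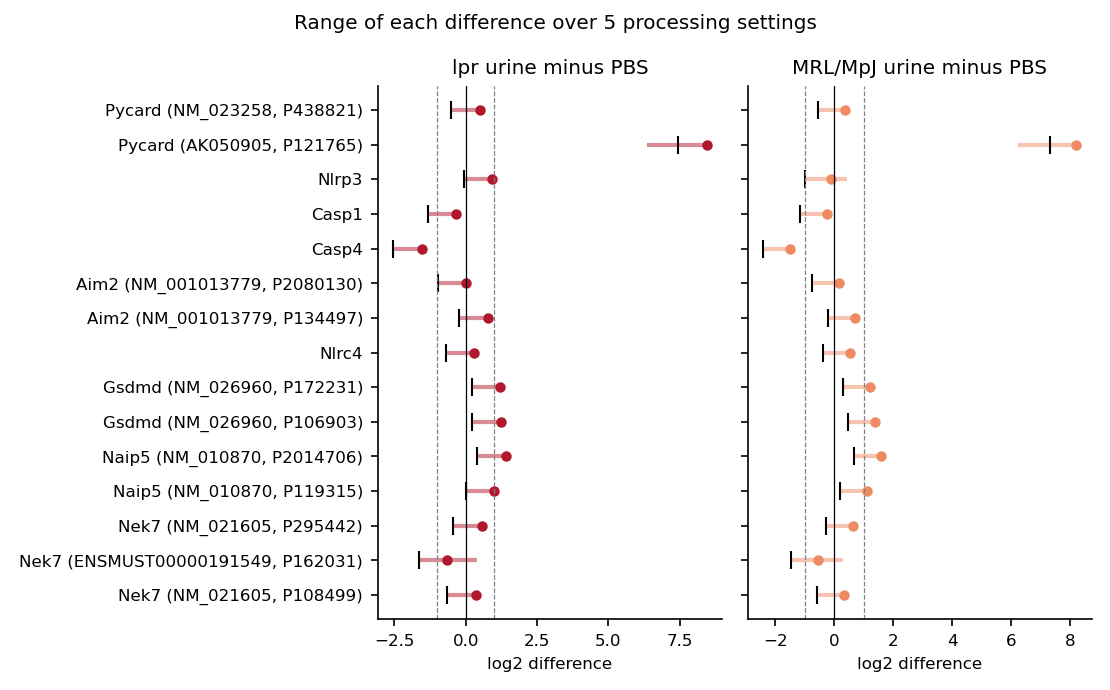
Range of the log2 difference from PBS of each probe over 5 settings (75th percentile, median, E1A spike-in and quantile scaling, and normexp background correction), with lpr urine on the left and MRL/MpJ urine on the right. Points are the 75th percentile values, black ticks the spike-in values and dashed lines 2-fold. The ranges of Casp4 and of the AK050905 probe lie wholly beyond 2-fold, and those of Aim2, Nlrc4, Nlrp3, Nek7 and NM_023258 cross 0 for at least 1 probe of each.

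Promoter windows of 8 of the 9 genes were found in the RefSeq table, which gives 250 bases before and 50 after each start. The NF-kB consensus was searched on both strands and was present in 4.51% of all 32851 windows. It occurred in the Casp4 windows, where the overlapping matches GGGGATTTCC and GGGATTTCCC begin 93 and 92 bases before the start in the window printed above. It also occurred in 1 of the 2 Nlrp3 windows, as GGGAACCCCC, and in the Naip5 window, as GGGGAACTCC. The core of the interferon-stimulated response element stood in 3.44% of all windows and the gamma-activated site, searched as TTCNNNGAA, in 8.30%, and neither stood in a member window. A match is a run of letters only.

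The products that caspase-1 matures were read beside the members. Il1b had 2 probes of its RefSeq transcript NM_008361. The brighter had 903.1 with lpr urine, 541.1 with MRL/MpJ urine and 1378 with PBS, and the other had 241.4, 136.2 and 347.5. Both were higher with lpr urine than with MRL/MpJ urine, by 0.93 and 1.02, the direction that Nlrp3 showed, and these differences ran from 0.75 to 1.05 over the 5 settings. Against PBS they differed by 0.45 and 0.53 with lpr urine and by -0.49 on both probes with MRL/MpJ urine, and with spike-in scaling they were below PBS with both urines. Another Il1b probe, of the Ensembl transcript ENSMUST00000155994.1, had 24.1, 23.8 and 292.4, and differed by -2.54 and -2.76 from PBS. Between lpr urine and MRL/MpJ urine this probe differed by only 0.21, and by 0.12 to 0.21 over the 5 settings. Il18 had 57.1, 69.9 and 64.2, with differences of 0.89 and 0.99, which became -0.11 and 0.08 with spike-in scaling.

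The other genes of the pathway were taken as a list of 57 genes in 5 roles, 1 probe per gene, and 46 of them were well above background with both urines and PBS. Of these, 10 were 2-fold higher and 8 were 2-fold lower against PBS with lpr urine, and likewise 10 and 8 with MRL/MpJ urine. Over all genes, 16.2% were higher and 13.3% lower with lpr urine, 29.5% together, and 14.9% were higher and 12.2% lower with MRL/MpJ urine, 27.1% together. The median of the list was -0.08 with lpr urine and -0.13 with MRL/MpJ urine, and that of all genes was 0.02 with either. Both counts depended on the scale, since with spike-in scaling 1 gene was higher with either urine, and 25 were lower with lpr urine and 24 with MRL/MpJ urine. The share of all genes with spike-in scaling was not taken. Between the urines 0 of 48 genes was past 2-fold in either direction, where 0.293% of all genes were (0.239% higher and 0.0545% lower), and the Il1b probe of that list stood at 0.93.

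The other sensors held both directions. Mefv, the gene of pyrin, which senses bacterial toxins, had 37.7 with lpr urine, 43.3 with MRL/MpJ urine and 419.9 with PBS, with differences of -2.42 with both urines. Naip6, another flagellin receptor of the mouse, differed by 1.89 and 1.76, and Nlrp1b, the sensor of anthrax lethal factor, by 1.89 and 1.57. The Nlrp1b probe was dim, with 11.6 with lpr urine, 10.7 with MRL/MpJ urine and 6.52 with PBS. On the PBS array the faintest signal called well above background was 4.47. Naip2, which binds the rod of bacterial secretion systems, differed by 0.64 and 1.01. With spike-in scaling Naip6 and Nlrp1b stayed above 0 but within 2-fold, and Naip2 was at -0.36 with lpr urine and 0.10 with MRL/MpJ urine.

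Among the pore genes and proteases, Ninj1, whose protein ruptures the membrane after gasdermin pores form, had 225.7 with lpr urine, 295 with MRL/MpJ urine and 2811 with PBS, with differences of -2.58 and -2.39. Gsdmc, another gasdermin, had 25.0, 24.4 and 17.7 and differed by 1.55 and 1.32, but by 0.555 and 0.414 with spike-in scaling, short of 2-fold. Among the antagonists, Il1rn, the interleukin-1 receptor antagonist, had 32.5, 37.0 and 619.1, with differences of -3.20 with both urines. Ninj1 and Il1rn were 2-fold lower in all 5 settings, as was Mefv.

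Receptors and channels that prime or trigger the pathway were lower or within 2-fold, apart from the ATP-gated channel P2rx7, which differed by 0.80 with lpr urine and 1.06 with MRL/MpJ urine, but by -0.20 and 0.15 with spike-in scaling. Cd14, the co-receptor for lipopolysaccharide, had 135.6, 113.8 and 915.5 with lpr urine, MRL/MpJ urine and PBS, with differences of -1.70 and -2.15. P2rx4, another ATP-gated channel, differed by -1.87 and -1.66, and the channel gene Panx1 by -1.35 and -1.24. These 3 genes were 2-fold lower in all 5 settings on the probes listed, although another Panx1 probe stood at 0.00 and -0.24.

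Of the regulators, Hsp90aa1, a chaperone that holds NLR proteins ready, had 15880 with lpr urine, 20400 with MRL/MpJ urine and 6806 with PBS. Its differences of 2.28 and 2.45 made it the one gene of the list that was 2-fold higher in all 5 settings. Hspa8, another chaperone, differed by 1.71 and 1.65, but by 0.72 and 0.745 with spike-in scaling, short of 2-fold. Birc3, a ubiquitin ligase induced by NF-kB, differed by -1.71 and -2.54, and Irf1, an interferon-induced transcription factor, by -1.65 and -1.71. Both were 2-fold lower in all 5 settings, but another probe of Irf1 stood at -0.03 and -0.30, and other Birc3 probes reached up to -0.40 with lpr urine and -0.90 with MRL/MpJ urine. Irf8, a transcription factor that drives Naip genes in mouse macrophages, had 1544, 1913 and 5758, and differed by -0.84 and -0.73, within 2-fold on this scale. With spike-in scaling it was past 2-fold lower, at -1.84 with lpr urine and -1.64 with MRL/MpJ urine.

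**Figure D5:**
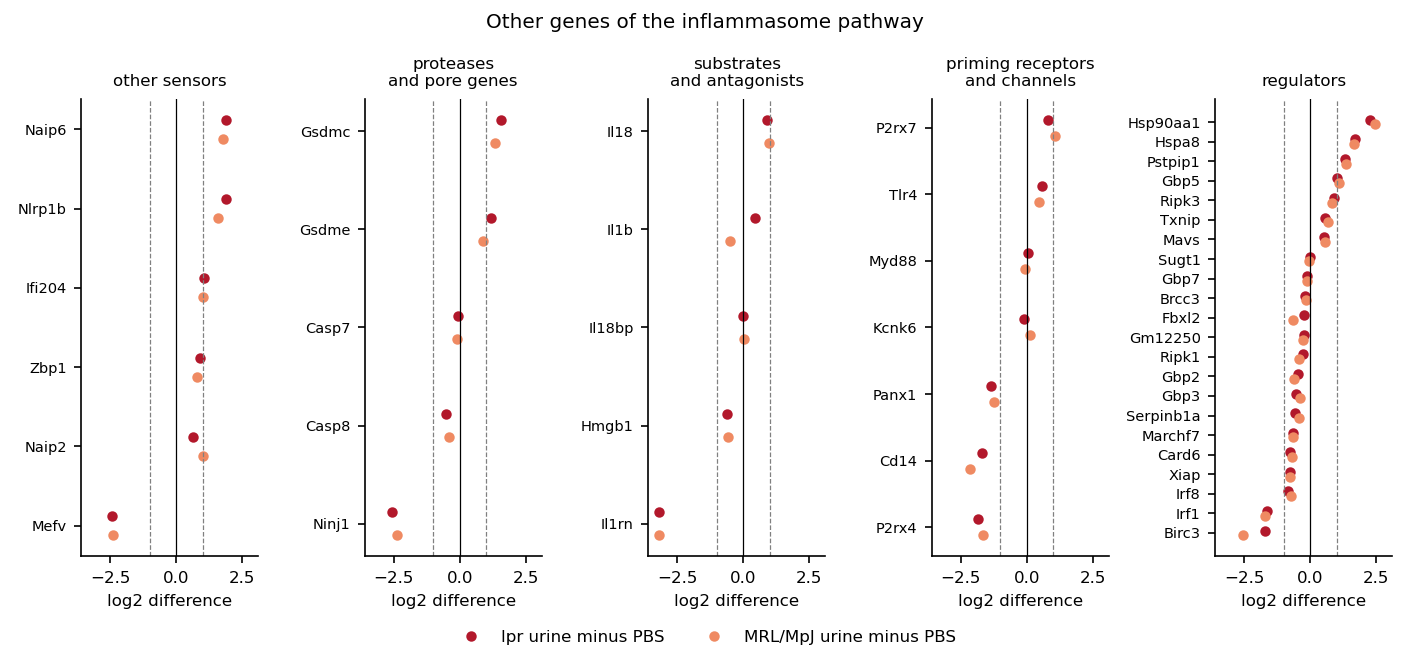
log2 difference from PBS of listed pathway genes measured with both urines and PBS, by role, with lpr urine and MRL/MpJ urine side by side. Dashed lines mark 2-fold and each gene is shown by 1 probe, after scaling to the 75th percentile. Il1rn lies lowest, at -3.20 with both urines, and Hsp90aa1 highest, at 2.28 and 2.45.

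Markers of the cell types of the spleen were read on the same arrays because inflammasome genes are best known from myeloid cells. Beside the counts that follow, 16.2% of all genes were 2-fold higher and 13.3% lower with lpr urine. With MRL/MpJ urine 14.9% were higher and 12.2% lower. Of 10 monocyte and macrophage markers, 10 were well above background on all 3 arrays, and 5 were 2-fold higher against PBS with each urine. The summed signal of these 10 markers before scaling was 16040 with lpr urine, 20250 with MRL/MpJ urine and 16960 with PBS. As multiples of each array's 75th percentile, the scale on which the calls were made, it was 212, 234 and 108. Such sums follow the brightest probes of a set more than the set as a whole. Before scaling, Itgam had 4668, 6535 and 2503 with lpr urine, MRL/MpJ urine and PBS. Lyz2 had 4593, 6428 and 6760, and Ly6c2 had 4904, 5321 and 5421. Of 8 neutrophil markers, 3 were 2-fold higher with each urine, with sums of 63670, 73590 and 69140 before scaling and 841, 849 and 439 after it. B cell markers were higher in 3 of 6 with lpr urine and 4 of 6 with MRL/MpJ urine, with sums of 30700, 37330 and 34370 before scaling and 405, 431 and 218 after it. None of 5 T cell markers reached 2-fold, and their sums were 11010, 11850 and 20350 before scaling and 145.5, 136.8 and 129.2 after it. Of 5 urinary tract epithelium markers, Upk1a alone was above background, with 8.77, 9.52 and 26.0. With each urine 1 of 3 natural killer cell markers and 1 of 3 erythroid markers were 2-fold higher, and of 5 dendritic cell markers 1 was higher and 1 lower. The counts of higher markers depended on the scale, since 14 were higher with lpr urine and 15 with MRL/MpJ urine, but 1 and 2 with spike-in scaling. For that scale the share of all genes was not taken. The integrin gene Itgam, at 1.96 with lpr urine and 2.25 with MRL/MpJ urine, differed by more than Gsdmd or Naip5, while its other probe stood at 0.76 and 0.22. The part of cell makeup in the differences of the members was not tested.

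Genes whose differences from PBS were most like those of a member were sought over the pair of urine differences, among 14117 genes, by Euclidean distance. The AK050905 probe had no close match, its nearest being Gadd45g at a distance of 1.10, Lsmem1 at 1.45 and Rnaseh2a at 1.53. For the brighter Naip5 probe the nearest were Gm8016, Slc9b2 and Sh3glb2, at 0.03 each. With 2 differences per gene that share the PBS array, such a likeness is a description of these arrays only.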

How the data were processed

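The data are 3 single-colour Agilent arrays (design 074809, Cy3 label) that shared 1 slide and 1 scan and were read with Feature Extraction 12.0.3.1, per the file headers. They were deposited as intensity values, in arbitrary units. Per the file headers, the processed signal had background subtracted within the array by the authors' software and was not normalised between arrays, and probe positions are on mm9. Labelling started from 0.05 µg of RNA, per the labels' protocols.

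Spots of 1 probe were averaged after control and outlier spots were left out. The level is the log2 of the processed signal after division by its 75th percentile over 56599 probes, and errors are the software's. Alternatives were median, E1A spike-in and quantile scaling, normexp correction (offset 50) on mean signal and local background, other detection filters, thresholds of 1.5-fold and 3-fold, and the mean of a gene's probes. R 4.3.3, limma 3.58.1, Python 3.11.15, numpy 2.4.6, pandas 2.3.3 and matplotlib 3.10.9 were used, and the counting was tested on simulated data. The simulated arrays did not differ in overall brightness, so that test could not check the scaling between arrays. Names were matched to RefSeq genes of GRCm38.p6, where all 9 members were found.

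The members and lists were chosen with earlier results of these data known. All member probes are named. From the pathway list, the text names members among the 4 largest differences per role and comparison, and Il1b, Il18 and Irf8. The 3 nearest genes on each side of Pycard were looked up, of which Gm19366 and Gm5738 had no probe, and some neighbours and list genes are not reported here. The 3 genes most like a member were sought for Pycard, Nlrp3 and 1 further member where both urine differences passed 2-fold, which Nlrp3 did not. Pathway and marker genes were read from the probe well above background on most arrays, then the brightest. Calls past 2-fold are descriptions of single arrays, whose number limits the precision.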

Additional observations from a re-analysis of the deposited data

How the results depend on the processing

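Each group had 1 array, so no replicate could be left out. No paired analysis was possible because each group had 1 array and no test was run. Counts below follow the order higher, then lower, against PBS, and those taken but not given were within 1.5 times of the main count. For pathway and marker genes no count was taken with quantile normalization, with the filters on dim probes, or at 1.5-fold and 3-fold. With spike-in scaling the member probes gave 1 and 3 with lpr urine and 1 and 4 with MRL/MpJ urine, the pathway genes 1 and 25 and 1 and 24, and the marker genes 1 and 7 and 2 and 7, where 75th percentile scaling gave 14 and 1 and 15 and 1 for the markers. With median scaling the member probes gave 2 and 2 with lpr urine and 2 higher with MRL/MpJ urine, the pathway genes 5 and 13 and 4 and 13, and the marker genes 5 and 2 with lpr urine and 6 higher with MRL/MpJ urine. With normexp correction 2 member probes were higher with each urine, 3 pathway genes with each, and 4 marker genes with each, with 0 marker genes lower. Quantile normalization left 3 member probes higher with lpr urine. At 3-fold, 1 member probe was higher with lpr urine and 2 with MRL/MpJ urine and 0 were lower with either, and at 1.5-fold 2 were lower with lpr urine. Between lpr urine and MRL/MpJ urine the single member call, Nlrp3, became 0 with spike-in scaling, with normexp correction and at 3-fold. The share of all probes or genes past the threshold was taken at 2-fold with 75th percentile scaling only. Counts in the other settings therefore have no such share beside them, and whether they differ from those of all probes was not tested. Beyond the shift of all probes that a scaling brings, the cause was not tested. That shift was -0.39 and -0.37 with median scaling for lpr urine and MRL/MpJ urine. Filters on dim probes (member probes) and the mean of a gene's probes (pathway and marker genes) changed no count by more than 1.5 times. Dim probes, such as those of Nlrp3, the lesser Naip5 probe and the Ensembl Nek7 probe, are limited by signal over background.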
